A study of Mus musculus with 2 samples.

Results

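The genes described here encode the proteasome, its activators, its inhibitor and its assembly factors. They were taken by symbol, as every gene named Psm followed by a letter from a to g and a number, and 49 of the 23329 genes in the files met that rule. Their 53 transcripts were present in both libraries, and counts were summed per gene. RNA came from brains of wild-type C57BL/6 mice, with the tissue given as whole brain. The series set out to find mRNA enriched at synapses, as its title states. Of the 2 libraries, 1 was made from total homogenate and 1 from a synaptosome-enriched fraction, which is the Percoll layer between 3% and 10% that collects pinched-off nerve endings with attached membrane. Both sample titles carry the tag CT10, whose meaning the labels do not explain, and the animals' age and number are likewise not given. Both libraries came from unmodified animals, and neither had a replicate.

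The proteasome is the large protease that breaks down proteins tagged with ubiquitin. Its core is a barrel of stacked rings: outer rings of alpha subunits control entry, and inner rings of beta subunits hold the cutting sites. A regulatory particle caps the barrel, with a base whose ATPase ring unfolds substrates and a lid that removes ubiquitin. In neurons, proteasomes are found in dendrites and nerve terminals, where breakdown of synaptic proteins takes part in activity-dependent remodelling.

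Messages of the 31 constitutive proteasome subunits were present in homogenate at high levels, which differed up to 5.1-fold between genes. In the synaptosome fraction most lay slightly below the typical gene. Of the 49 members, 47 passed the low-count filter, an average of 1 CPM (counts scaled to library size) across both libraries, and Psmb9 and Psma8 did not. Among those 47, the synaptosome fraction showed 0 higher by 2-fold or more and 2 lower by as much, the ATPase Psmc2 and the thymus subunit Psmb11. Of all 14153 genes measured, 12.8% were higher by 2-fold or more and 9.1% were lower. Among the 5663 genes with a mean of 30 to 250 CPM these shares were 13.8% and 4.59%, and the 2 lower members were 4.26% of the 47. The median log2 ratio of synaptosome over homogenate was -0.27 over the 47 members and -0.01 over all genes measured. No test stands behind these counts, because each fraction had 1 library.

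Ratios were scaled with TMM, which sets the typical gene near a ratio of 1, and each carries an exact 95% counting interval that covers counting error only. The interval lay wholly below 0 for 28 of the 47 members (59.6%), against 35.9% of all genes, and wholly above 0 for 6 (12.8%), against 36.7%. Ratios themselves were below 0 for 36 members (76.6%), against 50.7%. At 1.5-fold, 11 members (23.4%) were lower, against 20.9% of all genes, and 1 (2.13%), Psmb8, was higher, against 24%. With library totals in place of TMM every log2 ratio moved by -0.49, and the median of all genes measured was -0.51. On that scale 12 members (25.5%) were at least 2-fold lower, a share next to the 25.6% of all genes, and 0 were higher by that much, against 4.49%. On TPM (transcript level per length, set to the same sum in each library) they were 13 (27.7%), against 27.6%, and 0, against 3.99%. Higher and lower thus refer to position beside the typical gene. Each library holds RNA of many cell types. In a ratio of the fraction to the homogenate, the place of a message within cells and the mix of cell types collected cannot be told apart.

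**Figure D1:**
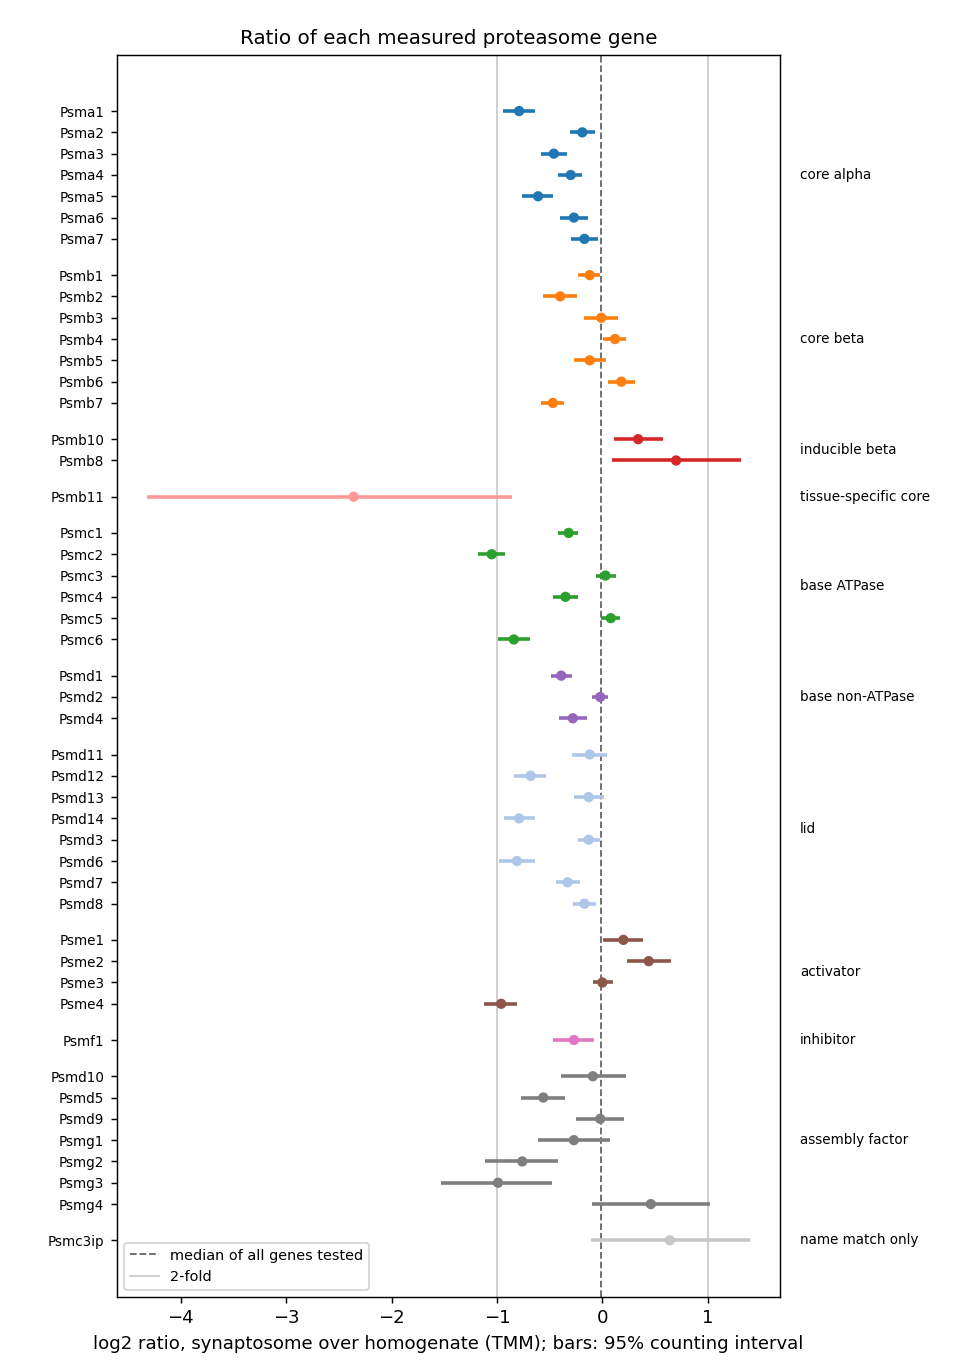
Log2 ratio of synaptosome over homogenate (TMM scaling, x axis) for the 47 measured members, grouped by class; points are the 2 libraries' ratio, bars the 95% counting interval, the dashed line the median of all genes at -0.01 and the grey lines 2-fold. Most constitutive subunits sit between -0.5 and 0, Psmc2 and Psmb11 lie past the 2-fold line, and the inducible beta subunits lie to the right.

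The library labels were checked against marker genes. Of 4 synaptic and dendritic mRNAs (Syp, Dlg4, Camk2a and Shank1), 3 were at least 2-fold higher and 0 lower, and of 3 nuclear RNAs (Malat1, Meg3 and Neat1) all 3 were lower by 2-fold or more. Estimated counts summed to 15210857 in homogenate and 13709539 in synaptosomes. Marker lists of cell types moved in different directions: 5 of 6 astrocyte, 4 of 6 microglial and 2 of 6 oligodendrocyte genes were higher by 2-fold or more, 2 of 6 neuronal and all 6 endothelial genes were lower, and no marker was at 0 in either library. Of the neuronal genes, 5 had intervals wholly below 0, among them Snap25 at 2.67-fold lower, and 1, Syt1, lay above. The median log2 ratio was 1.57 for the synaptic and dendritic mRNAs and 1.88 for astrocyte genes. It was 1.13 for microglial, 0.37 for oligodendrocyte, -0.88 for neuronal and -3.17 for endothelial genes. The part of these shifts in the proteasome values was not tested. Levels of microglial and endothelial markers are given beside the inducible subunits.

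Promoters are shown because the motif recurs in members of different roles, and 41 of the 49 had an entry in the RefSeq table (GRCm38.p6). The 250 bases before each start were searched on both strands. The letters CCGGAAG, an ETS-like motif, were found in 13 of the 41 (31.7%, Psmc3ip included), in 14.1% of the 10067 measured genes with an entry and in 7.83% of all 27025. In the following stretches, which run 5′ to 3′ on the gene's own strand, capitals mark that motif.
Psmc6, chr14:45329689-45329765, plus strand: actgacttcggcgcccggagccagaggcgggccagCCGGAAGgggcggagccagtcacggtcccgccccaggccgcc
Psma6, chr12:55398658-55398734, plus strand: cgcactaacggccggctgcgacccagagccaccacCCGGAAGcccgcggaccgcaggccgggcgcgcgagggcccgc
Psmd4, chr3:95042698-95042774, minus strand: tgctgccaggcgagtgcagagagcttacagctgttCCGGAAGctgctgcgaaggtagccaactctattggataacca
Psme3, chr11:101316071-101316147, plus strand: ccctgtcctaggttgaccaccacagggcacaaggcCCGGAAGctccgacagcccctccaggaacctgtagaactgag
These are an ATPase, an alpha subunit, a ubiquitin receptor and an activator, but the 13 were not spread evenly over classes. Most belong to the regulatory particle: Psmc1, Psmc2, Psmc6, Psmd2, Psmd4, Psmd6, Psmd11 and Psmd12. The rest are Psma6, Psme3, Psme4, Psmg1 and Psmc3ip. Psma6 was thus the only core subunit, and no beta subunit with an entry had the motif (Psmb1, Psmb2 and Psmb7 had no entry). The motif starts 100 bases before the start of Psmc6, 132 before Psma6, 125 before Psmd4 and 107 before Psme3.

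A second motif, the antioxidant response element, is the type of site bound by Nfe2l1, a transcription factor known for inducing proteasome genes. Its letters TGACNNNGC were in 5 of 41 member promoters (12.2%), against 14.1% of measured genes, and the form TGAGNNNGC in 10 (24.4%), against 18.9%. Both of the following are catalytic core subunits, with the motif in capitals.
Psmb5, chr14:54618023-54618077, minus strand: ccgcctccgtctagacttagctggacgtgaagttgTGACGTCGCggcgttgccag
Psmb6, chr11:70525313-70525356, plus strand: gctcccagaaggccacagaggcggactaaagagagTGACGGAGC
Other searched letters were GGGCGG, the GC box, in 53.7% of members and 63.8% of measured genes. CCAAT was in 36.6% and 40.7%, and a nuclear respiratory factor-like motif in 14.6% and 8.59%. CACGTG was in 9.76% and 9.83%, TGACGTCA in 0 members and 3.05% of measured genes. Of 2 interferon-type motifs, the interferon-stimulated response element-like one was in 7.32% and 2.99%, and TTCNNNGAA in 4.88% and 7.15%. The first was in 3 members, Psmb3, Psmd4 and Psmd9, and in none of Psmb8, Psmb9, Psmb10, Psme1 and Psme2. The second was in 2, Psmb8 and Psmg1. Motifs were counted separately, so the same bases can count for more than 1, and a match describes letters only. Measured members with CCGGAAG had a median log2 ratio of -0.28 (13 genes) and those without it -0.17 (27 genes), while over all measured genes these were -0.11 and 0.00.

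The alpha ring, which gates the core, was uniform in direction. All 7 alpha subunits had intervals wholly below 0, with a median log2 ratio of -0.30 and a range from -0.79 to -0.17, and 0 of 7 passed the 2-fold rule in either direction. Psma1 had the lowest ratio, with 1342 counts in homogenate and 498 in the synaptosome fraction, or 180.85 and 72.14 TPM. Relative to the typical gene it was 1.73-fold lower (95% counting interval 1.56 to 1.92). Psma5 was the next lowest at -0.61, with 1330 and 557 counts. Psma7 had the highest ratio of the ring at -0.17, with 1263 and 719 counts. The other 4, Psma2, Psma3, Psma4 and Psma6, lay between -0.46 and -0.19.

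Beta subunits lay closer to the typical gene. The 7 constitutive members had a median log2 ratio of -0.12, with 3 intervals wholly below 0, 2 wholly above and 2 spanning it. Psmb6, the caspase-like catalytic subunit, had the highest ratio at 0.18 (0.05 to 0.31), with 1094 and 793 counts, or -0.31 under library totals. Psmb7, the trypsin-like subunit and the most abundant member in the homogenate, had the lowest at -0.47 (-0.58 to -0.36), with 389.15 TPM in homogenate and 193.45 in the synaptosome fraction. Psmb5, the chymotrypsin-like subunit, was at -0.12 with an interval spanning 0, from 1008 and 595 counts. The 3 cutting subunits thus did not share a ratio: the intervals of Psmb6 and Psmb7 do not overlap. Of the noncatalytic 4, Psmb4 was at 0.12, Psmb3 at -0.01, Psmb1 at -0.12 and Psmb2 at -0.40.

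Summed counts of the beta ring changed from 9802 to 5768 between homogenate and synaptosome fraction, and those of the alpha ring from 10254 to 5044. The beta ring's ratio was 1.2 times that of the alpha ring (1.14 to 1.25), a comparison within the same libraries that no scaling affects. It was 1 of 12 such comparisons, each with an unadjusted interval that covers counting error alone. Among single subunits, the intervals of Psmb4 and Psmb6 lay above those of all 7 alpha subunits and that of Psma1 lay below those of all 7 beta subunits, while the others overlapped between the rings.

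The inducible beta subunits replace the catalytic ones in the immunoproteasome, a form that cells make after interferon exposure and that favours peptides for antigen presentation. Psmb8 had the highest ratio of the 47 measured members, and all 3 lay below every constitutive subunit in level. Psmb10, the counterpart of Psmb7, had 331 counts in homogenate and 269 in the synaptosome fraction (44.03 and 38.47 TPM), a log2 ratio of 0.34 (0.11 to 0.58). Psmb8, the counterpart of Psmb5, had 46 and 48 counts and a ratio of 0.70 (0.09 to 1.32). Psmb9, the counterpart of Psmb6, had 12 and 16 counts, did not pass the low-count filter, and its interval (-0.11 to 2.27) spans 0. None of these 3 passed the 2-fold rule, and under library totals Psmb8 was at 0.21 and Psmb10 at -0.15.

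Set against their constitutive counterparts, inducible subunits made up a larger share in the synaptosome fraction. Psmb8 was 3.04% of the summed TPM of Psmb8 and Psmb5 in homogenate and 5.26% in the synaptosome fraction, a ratio of ratios of 1.77 (1.14 to 2.74). Psmb10 was 10.2% and 16.6% of its pair with Psmb7, a ratio of ratios of 1.76 (1.46 to 2.11). For Psmb9 and Psmb6 the value was 1.84 with an interval, 0.811 to 4.28, that includes 1. Constitutive subunits thus held most of the message at every catalytic position in both libraries.

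Psmb8 (chromosome 17, 34198195 to 34201454, mm10) and Psmb9 (34182099 to 34187330) lie in the major histocompatibility locus beside Tap1 and Tap2, which encode the peptide transporter of antigen presentation. Of 9 antigen presentation partners, 8 were measured, with a median log2 ratio of 0.34, or -0.15 under library totals. By 2-fold or more, 0 were lower (against 9.1% of all genes measured) and 1 was higher (against 12.8%). Tap2 was the one, at 1.08 (0.65 to 1.52) from 79 and 107 counts, whereas Tap1 was at 0.11 (-0.60 to 0.80). Under library totals Tap2 was at 0.59, short of 2-fold. B2m, the shared light chain of class I molecules and the most abundant of them, was at 0.50, H2-D1 at 0.89, and Irf1, an interferon-responsive transcription factor, at -0.82. In the same libraries all 6 microglial markers had ratios above 0, with summed levels of 312.5 and 537.9 TPM, and all 6 endothelial markers were lower, with 214.7 and 14.67 TPM. The part of either cell type in the inducible subunits was not tested.

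The tissue-specific core genes were near the detection limit. Psmb11, the thymus-specific beta subunit, had 32 counts in homogenate and 4 in the synaptosome fraction (1.2 and 0.17 TPM) and was 5.12-fold lower (1.82 to 19.9). Psma8, the testis-specific alpha subunit, had 5 and 11 counts and did not pass the filter. Psmb11 (chromosome 14, 54625310 to 54629556) is a single-exon gene next to Psmb5, and its call rests on those few counts. It passed the low-count filter only through the homogenate, where it was higher, so the filter favours a call in that direction.

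**Figure D2:**
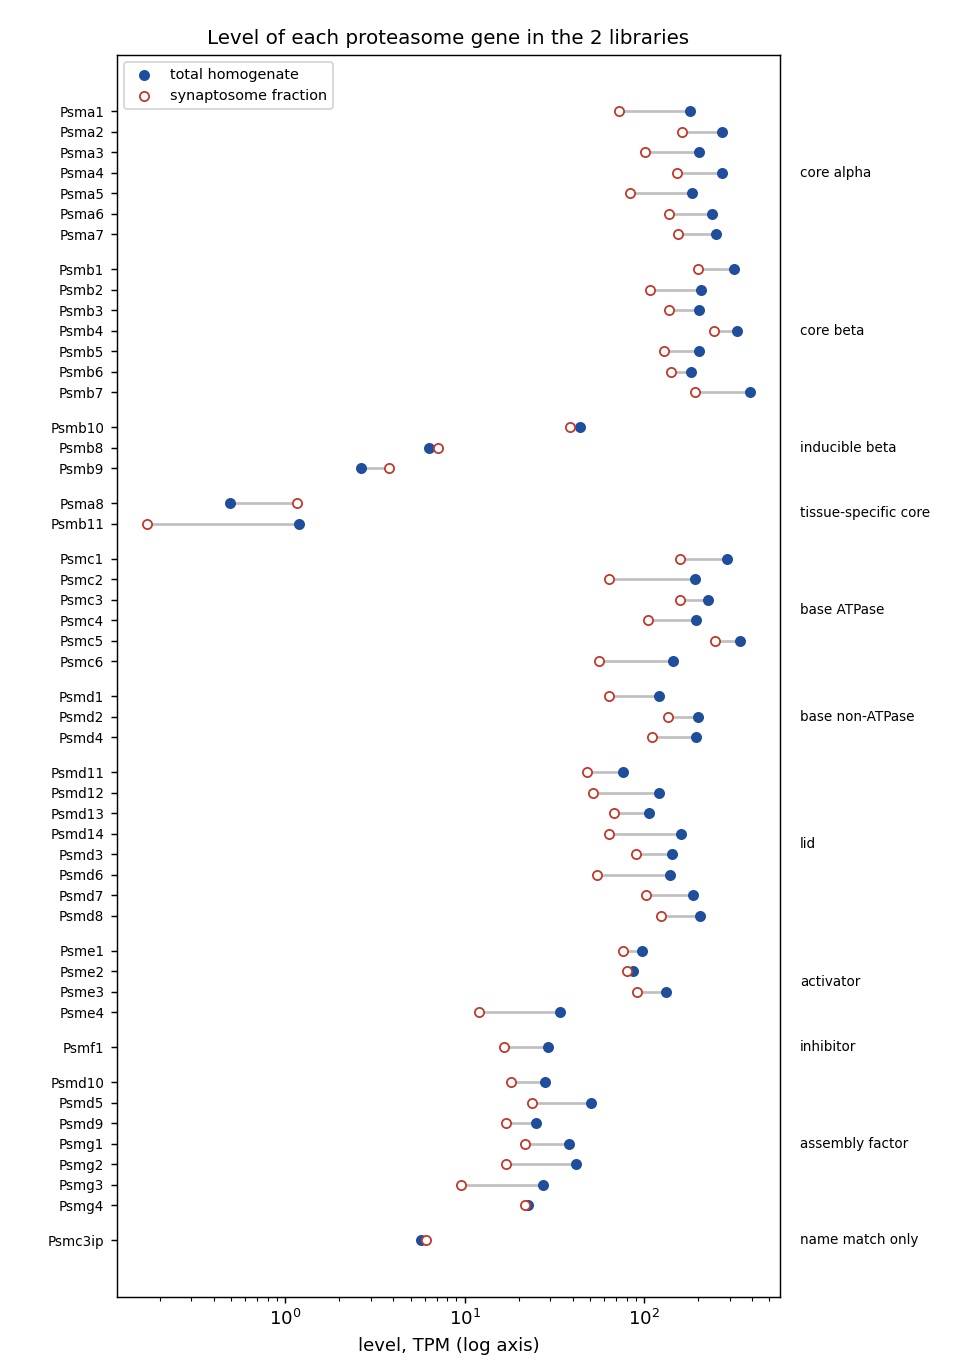
Level of each of the 49 members in TPM (x axis, log scale), with blue filled points for the homogenate and red open points for the synaptosome fraction, grouped by class. Constitutive core and 19S genes fall between 76.3 and 389 TPM in the homogenate, the inducible and tissue-specific core genes lie below that range, and most open points lie left of the filled ones on this scale, on which the median of all genes is at a log2 ratio of -0.55.

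ATPases of the base, the ring that unfolds substrates and opens the core, varied more than the core. Of 6, 1 passed the 2-fold rule as lower and 0 as higher, 4 intervals lay below 0 and 2 spanned it, and the median log2 ratio was -0.34. Psmc2 (chromosome 5, 21785283 to 21803784) had 2073 counts in homogenate and 642 in the synaptosome fraction, or 192.04 and 63.93 TPM. It was 2.07-fold lower (1.89 to 2.26), so that its interval reaches below 2-fold. Psmc6 was at -0.84 (-0.99 to -0.69), with 1370 and 490 counts. Psmc5 had the highest ratio at 0.08, with 2579 and 1743 counts, and Psmc3 was at 0.03, with 2233 and 1462. Psmc1 and Psmc4 lay between them at -0.32 and -0.35.

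The ring holds 1 copy each of these ATPases, yet their messages diverged. In the homogenate the most abundant, Psmc5 at 341.07 TPM, was 2.34 times the least abundant, Psmc6 at 145.76. In the synaptosome fraction the same pair differed 4.42 times, with 247.77 and 56.04 TPM. Relative to Psmc5, Psmc2 was 2.18-fold lower in the synaptosome fraction (1.96 to 2.43), and relative to Psmc1 it was 1.65-fold lower (1.48 to 1.85). Summed over the ring, the ATPases' ratio was 1.06 times that of the alpha ring (1.01 to 1.10). Subunits with many counts weigh most in that sum. Per gene the order was reversed, with median log2 ratios of -0.34 for the ATPases and -0.30 for the alpha subunits.

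Scaffold and receptor subunits of the base had a median log2 ratio of -0.28, near the -0.34 of the ATPases. Psmd2, the scaffold that docks ubiquitin carriers, had 3660 and 2309 counts and a log2 ratio of -0.02 (-0.10 to 0.05). Psmd1, the other large scaffold, was at -0.39, with 2449 and 1197 counts. Psmd4, a ubiquitin receptor, was at -0.28, with 1452 and 765 counts. Of these 3, Psmd1 and Psmd4 had intervals wholly below 0, and 0 passed the 2-fold rule.

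The lid, which carries the deubiquitinase of the particle, fell into members well below the typical gene and members near it. All 8 ratios were below 0, 6 intervals lay wholly below it, 0 of 8 passed the 2-fold rule, and the median was -0.25. Psmd6 was lowest at -0.81 (-0.98 to -0.64), with 1072 and 392 counts. Psmd14, the deubiquitinase itself, was at -0.79 (-0.93 to -0.64), with 1484 and 551 counts, while Psmd7, its structural partner, was at -0.33, with 1802 and 920. Psmd12 was at -0.68. The other 4, Psmd3, Psmd8, Psmd11 and Psmd13, lay between -0.17 and -0.12. The lid's summed ratio was 1.02 times that of the alpha ring (0.972 to 1.07), an interval that includes 1.

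Activators, alternative caps that open the core without ubiquitin, went in different directions by type. Psme1 and Psme2, the subunits of the interferon-inducible cap, had intervals above 0. Under library totals both were below 0, at -0.29 and -0.05, but above the median of all genes on that scale, -0.51. Psme1 was at 0.20 (0.01 to 0.39), with 547 and 402 counts, and Psme2 at 0.44 (0.23 to 0.65), with 404 and 351. Psme3, the subunit of a nuclear cap, was at 0.00 (-0.09 to 0.10), with 2132 and 1370 counts. Psme4, another nuclear activator, was at -0.96 (-1.12 to -0.81), with 1391 and 457 counts, just inside the 2-fold line.

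The class median was 0.10, outside the intervals of Psme2 and Psme4, and it was -0.39 under library totals. Against Psme3, Psme4 was 1.96-fold lower (1.72 to 2.22), Psme2 was 1.35-fold higher (1.15 to 1.59) and Psme1 was 1.14-fold higher with an interval, 0.986 to 1.33, that includes 1. Psme2 has a near-identical copy, Psme2b, with 99.37% identity over 794 aligned bases, which was not analysed here, so reads of that copy cannot be told apart from its own. Psmf1, an inhibitor of the core in the test tube, was at -0.27, with 642 and 340 counts.

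The 7 assembly factors with Psm symbols, which help build the core or the base, had lower levels than the constitutive subunits. Their levels ran from 22.61 to 50.92 TPM in the homogenate, against 76.3 to 389 for the 31 constitutive subunits. Psmg1 and Psmg2 form 1 chaperone pair for the alpha ring, at -0.27 (-0.61 to 0.07) and -0.76 (-1.11 to -0.42). Psmg3 and Psmg4 form the other. Psmg3 had the lowest ratio of the class at -0.99, from 130 and 42 counts, and Psmg4 the highest at 0.46, from 60 and 53, with intervals of -1.53 to -0.48 and -0.10 to 1.02 that do not overlap. Chaperones of the base were at -0.56 (Psmd5), -0.02 (Psmd9) and -0.09 (Psmd10). None of the 7 passed the 2-fold rule, and 3 intervals lay wholly below 0.

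Psmc3ip matches the name pattern but encodes a recombination protein and no proteasome subunit. It had 32 counts in each library and a ratio of 0.64 with an interval (-0.11 to 1.40) spanning 0. Part of its transcript, 385 bases, is shared with the neighbouring gene Mlx, so its counts are uncertain.

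Levels of the 31 constitutive subunits together varied more in the synaptosome fraction than in the homogenate by the coefficient of variation but not by the extremes. The coefficient of variation of their TPM values was 34.5% in homogenate and 45.1% in the synaptosome fraction, and their summed level was 6480 and 3726 TPM. By class it was 17.1% and 30.1% for the alpha ring, 31.2% and 29.5% for the beta ring, 30.8% and 54.6% for the ATPases, 25.8% and 35.3% for the other base subunits and 29.3% and 36.5% for the lid. By this measure the beta ring was the one of these 5 classes without a wider spread. By the highest over the lowest level the 31 subunits together hardly differed, at 5.10 and 5.13. Within classes this measure rose from 1.51 to 2.27 for the alpha ring, 2.34 to 4.42 for the ATPases and 1.65 to 2.13 for the other base subunits. The beta ring went from 2.14 to 2.27 and the lid from 2.67 to 2.59. Ratios of the 31 nonetheless had a standard deviation between genes of 0.31 on the log2 scale, against 0.75 for the 5663 genes of comparable abundance (mean of 30 to 250 CPM), whose median ratio was 0.09.

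Transcript base composition went with the ratio among members. GC content was read from GENCODE vM21 transcripts over the files' own exons. Across the 31 constitutive subunits, Spearman's rho between GC content and log2 ratio was 0.67 and Pearson's r 0.62, over the 47 measured members 0.54 and 0.41, and over 13490 measured genes with a value 0.20 and 0.18. These are correlations across genes of the same 2 libraries, given as a description. Psmc6 had the lowest GC content at 39.0%, and Psmd14 (43.2%), Psme4 (43.7%), Psma1 (44%), Psmd12 (45.1%) and Psmd6 (46.3%) were also GC-poor and low in ratio, and were picked after their values were seen. Psmb8 (56%) and Psmb10 (56.6%) were GC-rich and high in ratio.

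Exceptions included Psmc2, the constitutive subunit with the lowest ratio, at 48.7% GC, Psmg3, low in ratio at 56.6%, and Psmd10, near the typical gene at 42.6%. Other members as GC-poor as those named above were not as low in ratio. Psma4 had the GC content of Psme4 but a ratio of -0.30, and Psma2 that of Psma1 but a ratio of -0.19. Psma6 (45.6%) was at -0.27 and Psmb1 (47.7%) at -0.12. Psmb5 (56.6%) and Psmd3 (58.3%, the most GC-rich measured member) were at -0.12 and -0.13. For transcript length, rho and r were -0.21 and -0.11 over the 31 subunits, -0.31 and -0.43 over the 47 measured members, and 0.02 for both over all genes. All genes measured showed a gradient of similar size in their medians, from -0.30 below 44% GC (2317 genes) to 0.21 at 56% or more (2852 genes). The members' medians were -0.62 (8 genes) and -0.12 (5 genes) in the same ranges. The part of base composition in the members' ratios was not tested.

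**Figure D3:**
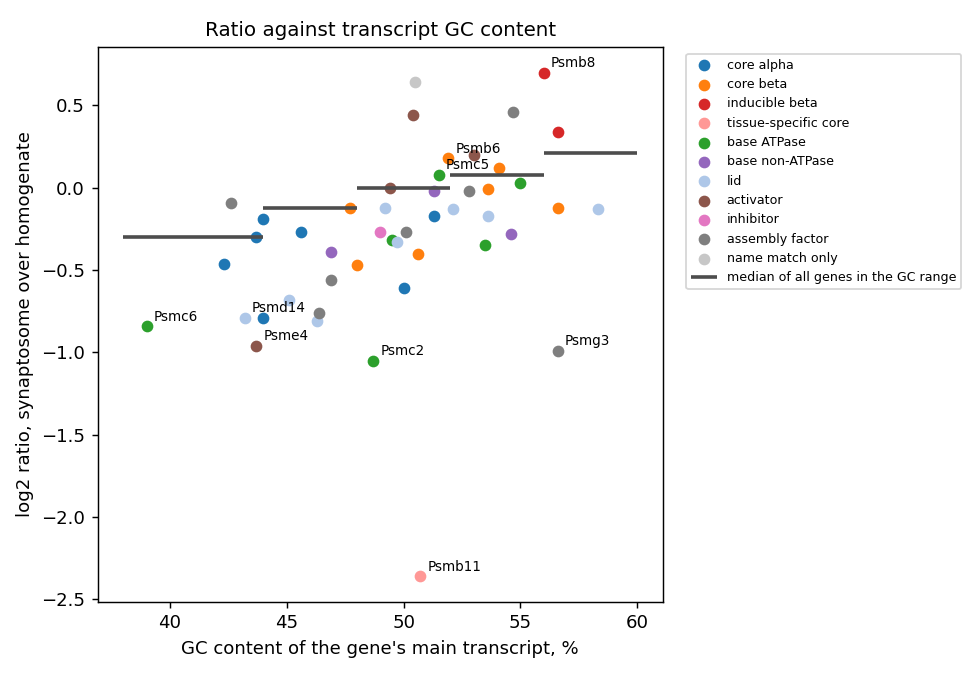
Log2 ratio of synaptosome over homogenate (y axis) against the GC content of each measured member's main transcript in percent (x axis), coloured by class, with horizontal bars for the median of all measured genes in each GC range. Several GC-poor members, such as Psmc6 at 39.0%, lie low, while others, such as Psma2 and Psmd10, lie nearer the typical gene. Of the 5 at 56% or more, Psmb8 and Psmb10 lie above 0 and the other 3 below it, with Psmc2, Psmg3 and Psmb11 below the trend.

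Of the members, 4 were annotated with 2 transcripts. Psmd10, the chaperone also known as gankyrin, had a main transcript at 0.13 (-0.20 to 0.46), from 190.58 and 134.46 estimated counts, and a shorter one at -1.44 (-2.49 to -0.52), from 51.42 and 11.54. The shorter form made up 22.3% of the gene's TPM in homogenate and 8.34% in the synaptosome fraction. In Psmd2 the minor noncoding transcript was at 1.80 (1.05 to 2.59), from 21.73 and 49.42 counts, and made up 0.576% and 2.08% of the gene. In Psme2 the intervals of both transcripts lay above 0 and overlapped, and in Psmg4 both spanned 0. Counts of such transcripts are model estimates that divide shared reads, an error the intervals do not cover.

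Single genes that supply or activate ubiquitin differed in direction. Ubb, which encodes a chain of ubiquitin units, had 23592 and 13172 counts and a log2 ratio of -0.20 (-0.23 to -0.17). Rps27a, which encodes ubiquitin fused to a ribosomal protein, was 2.44-fold higher (2.34 to 2.55), from 3484 and 5450 counts. Under library totals the log2 ratio of Rps27a was 0.80, short of 2-fold. The intervals of Ubb and Rps27a did not overlap. The main activating enzyme Uba1 was at -0.03 (-0.09 to 0.03), and Uba6, the alternative enzyme, was 2.60-fold lower (2.03 to 3.37), from 321 and 79 counts.

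Cofactors that bind, feed or regulate the proteasome spread around the typical gene. Of 26 listed, 25 were in the files, and their median log2 ratio was -0.13. By 2-fold or more, 1 was higher (against 12.8% of all genes measured) and 1 lower (against 9.1%). Usp14, a deubiquitinase that docks on Psmd2, was the lowest at 2.38-fold lower (2.19 to 2.59), from 2612 and 704 counts. Uchl5, the other deubiquitinase bound to the base, was at -0.79, and its anchor Adrm1 at -0.41. Nfe2l1, the factor that induces proteasome genes, was the highest at 2.01-fold higher (1.94 to 2.09), from 4801 and 6191 counts. Under library totals its log2 ratio was 0.52, short of 2-fold.

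The 3 cofactors most abundant in homogenate had ratios below 0, and the next, Nfe2l1 (201.23 TPM), had the highest ratio of the list. Pomp, which matures the core, had 419.34 TPM there and a ratio of -0.13. Shfm1, a small lid-associated subunit whose symbol falls outside the rule, had 313.15 TPM and a ratio of -0.36 (-0.54 to -0.19), next to the lid median. Vcp, the ATPase that extracts ubiquitin-tagged proteins, was at -0.16, with 6157 and 3541 counts. Ube3a, a ubiquitin ligase active in neurons, had 14.86 TPM in homogenate and a ratio of -0.01, with an interval spanning 0.

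**Figure D4:**
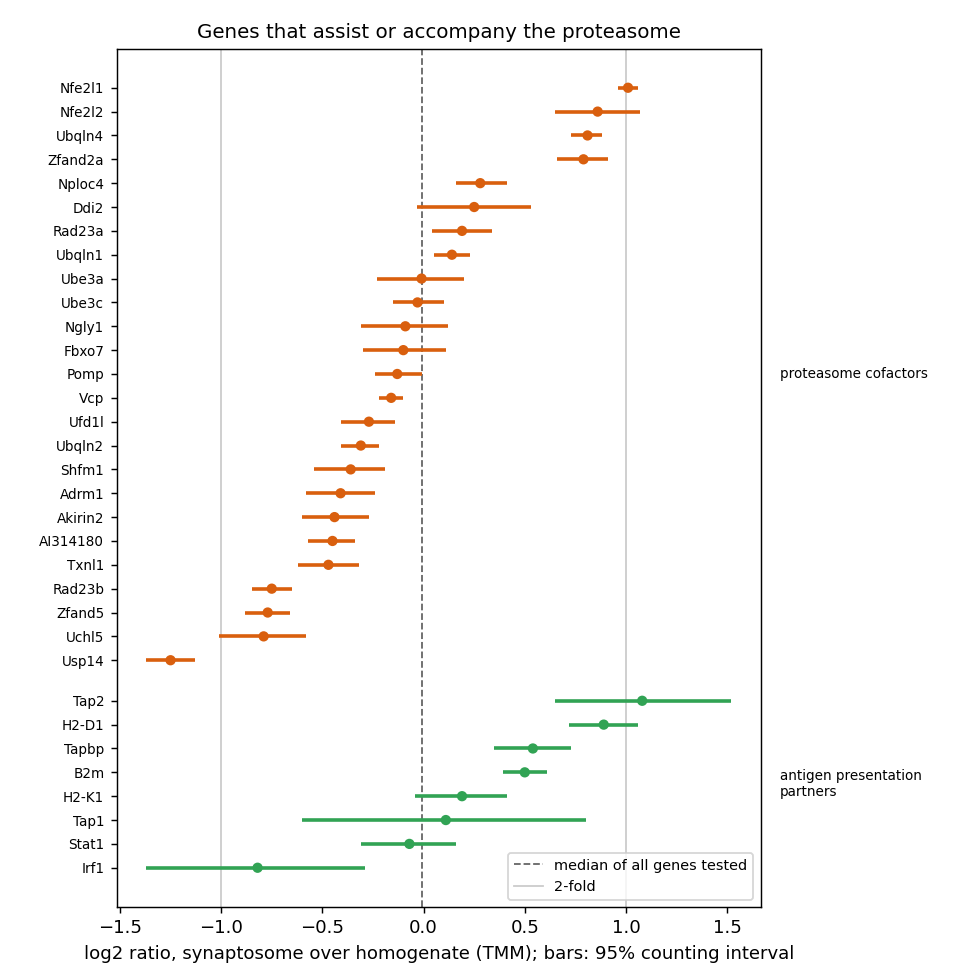
Log2 ratio of synaptosome over homogenate (TMM scaling, x axis) for the measured genes of 2 lists, proteasome cofactors and antigen presentation partners, with 95% counting intervals as bars, the median of all genes dashed and 2-fold in grey. Nfe2l1 and Tap2 lie past 2-fold on the right, and Usp14 past it on the left.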

How the data were processed

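The members, classes and gene lists were chosen with earlier results of these data known. The submitters' processing notes name RSEM 1.2.5, TopHat 1.3.3, edgeR 3.0.6, FastQC and build mm10, without roles or settings. The authors deposited an expected count (estimated count) and TPM per transcript, and, for each gene, a signal equal to the summed count times 0.7983 (homogenate) or 1.2527 (synaptosome), within 0.5% for 98.6% of genes in each. Per the labels, the kit was a stranded mRNA kit, but whether counting used strand is not stated, so overlapping genes are uncertain. Expected counts were summed per gene and rounded, and scaled with TMM in edgeR 4.0.16 (R 4.3.3; factors 1.1863 and 0.8429). The filter kept genes averaging 1 CPM or more. Intervals are exact Clopper-Pearson (scipy 1.17.1), and ratios of ratios are conditional odds ratios; the calculation was tested on simulated data. A gene was counted as changed at 2-fold or more with an interval excluding 0, since 1 library per fraction allows no test. PCR copies are not independent molecules. Named with full values were the highest and lowest ratio of each class and list, the 2 most abundant, members past 2-fold, the inducible subunits and members whose transcripts differ; other names and the promoter motifs were chosen after values were seen. Counts were whole (tolerance 0.015) in both libraries for 34 of 49 members. By blastn against GENCODE transcripts (at least 95% identity over 300 bases), 12 members matched another gene and 8 of them a pseudogene, so their values are less certain. The 8 were Psma3, Psma4, Psma5, Psmb3, Psmb5, Psmc1, Psmd2 and Psmd11. Ratios of ratios against Psmb5 and Psmc1 share that limit. The others were Psmc3ip, Psmd1, Psmd13 and Psme2, and Psmc2 had no such match. Some genes of the ubiquitin list, and counts over that list, are not reported here.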

Additional observations from a re-analysis of the deposited data

How the results depend on the processing

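No paired analysis was possible because each fraction had 1 library, so spread between animals or preparations is unknown. Under library totals and TPM, which move every gene down, 12 and 13 members were at least 2-fold lower; the count was 4 with upper quartile scaling, 1 at a minimum mean of 10 CPM, which removes Psmb11, and 11 at 1.5-fold. The count of higher members was 1 without a filter (Psma8) and 1 at 1.5-fold (Psmb8). Median log2 ratios under library totals and TPM were -0.76 and -0.81 for all measured members, -0.80 and -0.84 for alpha, -0.61 and -0.66 for beta, -0.83 and -0.88 for ATPases, -0.74 and -0.79 for lid, and -0.39 and -0.44 for activators, which changed sign. Medians of all genes measured were -0.51 and -0.55 on those scales, so a changed sign there is not a changed side of the typical gene. The other settings (DESeq2 size factors, upper quartile scaling, the authors' deposited signal, either filter, the most abundant transcript) gave medians for all members from -0.34 (upper quartile) to -0.19 (no filter, 49 members). Of these, the deposited signal is for nearly all genes the same counts rescaled. Taking the most abundant transcript can change only the 4 members with 2 transcripts. Of single members' ratios, 9 of 47 changed sign under library totals, 3 under DESeq2 size factors and 2 under upper quartile scaling; Psmc2 and Psmb11 did not. Psmb8, Psmb9, Psma8, Psmb11, Psmg4 and Psmc3ip had at most 60 counts in either library, where depth limits the ratio.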
